A study of Homo sapiens with 6 samples.

Results

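The replication-dependent histone genes encode the H1, H2A, H2B, H3 and H4 proteins that package newly made DNA, and most human copies lie in a single cluster on the short arm of chromosome 6. Each is a short gene without introns that is transcribed mainly in S phase, and its mRNA ends in a stem-loop in place of a poly(A) tail. Many H2A and H2B genes stand back to back and are transcribed away from a common promoter, so that a single accessible stretch can serve both. Members were taken as the protein-coding genes of GENCODE version 44 (GRCh37, the same build as hg19) between positions 26000000 and 28000000 of chromosome 6 with a histone symbol. This gave 50 of the 20163 protein-coding genes: 6 H1, 11 H2A, 12 H2B, 10 H3 and 11 H4 genes. They fall into a first block with 29 members whose starts lie between 26018015 and 26285866, and a second block with 21 members between 27100574 and 27861203. The gap between them, from H4C8 to H2BC11, spans 815 kb. Their main (Ensembl canonical) transcripts are 357 to 797 bp long, with a median of 486 bp.

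The libraries are bulk ATAC-seq of GM12878, a human B-lymphoblastoid cell line, in which the Tn5 transposase inserts adapters into open chromatin. In all 6 libraries the cells were fixed with 1% paraformaldehyde and transposed for 30 min, and crosslinks were reversed at 65 °C. By their labels, the 3 protocols, with 2 replicate libraries each, differed in the reverse crosslinking step. One used a buffer with the detergent SDS (SDS buffer), one a buffer without it (non-SDS buffer), and one the buffer without SDS and no DNA purification before PCR (unpurified). The methods add that DNA was purified after the SDS buffer, and the legend of a supplementary figure says the same of the non-SDS buffer. For the workflow without purification they also state a lysis buffer that departs from the standard one. Transposition was stopped there with EDTA, and the supernatant was discarded before reverse crosslinking. Nothing says that the replicates came from separate cultures, so the spread between them may be technical. For each library there is 1 list of narrow peaks, with the fold enrichment of the summit over its local background and the −log10 of the p and q values. In the order SDS buffer replicates 1 and 2, non-SDS buffer replicates 1 and 2, and unpurified replicates 1 and 2, the lists hold 37654, 34826, 38023, 30136, 36252 and 34438 peaks. The same order is kept wherever 6 values are given.

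Read totals are not in the lists. The number of reads at each summit and the local background were solved from the fold enrichment and the p value, and fitted 100% of the peaks within 0.001 in −log10 p. The lowest background, which scales with depth, was 1.74, 1.52, 1.58, 1.51, 1.76 and 1.86 reads, and the median summit held 20 to 22 reads. Depth was thus similar among the libraries, but a summit with so few reads is imprecise. Of 7 B cell markers, 2 had a peak at the start in all 6 libraries (MS4A1, which encodes CD20, and EBF1, a B cell transcription factor) and 3 in some (CD79A in 4, CD79B in 1 and PAX5 in 1), but CR2 and CD22 had none. Of 6 T cell markers only CD8A was called, in all 6 libraries, and of 5 erythroid and myeloid markers only CEBPA. None of 3 epithelial markers was called. All these markers were scored at the annotated gene start alone, which can lie away from the start of the main transcript. At the starts scored, the B cell label is thus carried by some of its markers and not by others.

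Promoter sequences are shown for 6 sites on which the results turn: the strongest and the weakest shared H2A and H2B promoter, the H4 genes with the highest peak and with none, and an H1 gene called in every library beside one called in none. All are from GRCh37 and run 5′ to 3′. Capitals mark exact matches, on either strand, to CCAAT, to TATAAA, to the octamer ATTTGCAT and to the H1 box AAACACA. Adjoining capitals in the TATA stretches are overlapping matches on the 2 strands.
H2BC12/H2AC12, chr6:27114635-27114884, plus strand, from start to start: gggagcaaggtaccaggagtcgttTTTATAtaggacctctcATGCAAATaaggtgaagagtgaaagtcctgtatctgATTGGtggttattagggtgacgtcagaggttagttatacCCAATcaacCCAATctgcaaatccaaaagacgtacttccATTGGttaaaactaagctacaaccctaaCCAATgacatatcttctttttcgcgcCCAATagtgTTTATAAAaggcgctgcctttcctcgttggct
H2AC14/H2BC14, chr6:27782556-27782799, plus strand, from start to start: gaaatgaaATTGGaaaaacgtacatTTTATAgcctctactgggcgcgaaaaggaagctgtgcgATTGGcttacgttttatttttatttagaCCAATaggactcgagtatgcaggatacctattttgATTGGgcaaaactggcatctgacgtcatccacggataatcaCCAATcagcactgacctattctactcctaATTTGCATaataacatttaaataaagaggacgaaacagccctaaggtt
H4C3, chr6:26103911-26104160, plus strand, the 250 bases before the start: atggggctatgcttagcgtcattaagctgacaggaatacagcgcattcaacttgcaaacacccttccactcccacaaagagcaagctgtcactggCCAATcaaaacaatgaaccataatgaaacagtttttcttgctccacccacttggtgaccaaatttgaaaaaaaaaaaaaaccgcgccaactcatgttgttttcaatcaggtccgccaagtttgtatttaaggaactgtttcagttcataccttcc
H4C7, chr6:26247225-26247474, minus strand, the 250 bases before the start: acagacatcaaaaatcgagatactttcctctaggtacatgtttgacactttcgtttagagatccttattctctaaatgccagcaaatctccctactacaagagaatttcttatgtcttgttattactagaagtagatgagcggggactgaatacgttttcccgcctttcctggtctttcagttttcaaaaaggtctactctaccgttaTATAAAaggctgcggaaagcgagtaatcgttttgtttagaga
H1-2, chr6:26056699-26056948, minus strand, the 250 bases before the start: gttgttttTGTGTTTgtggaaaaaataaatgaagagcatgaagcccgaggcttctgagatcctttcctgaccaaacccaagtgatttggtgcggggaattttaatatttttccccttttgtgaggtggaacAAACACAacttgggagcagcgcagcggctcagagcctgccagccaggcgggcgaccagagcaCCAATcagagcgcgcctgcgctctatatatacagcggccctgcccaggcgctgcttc
H1-1, chr6:26018016-26018265, minus strand, the 250 bases before the start: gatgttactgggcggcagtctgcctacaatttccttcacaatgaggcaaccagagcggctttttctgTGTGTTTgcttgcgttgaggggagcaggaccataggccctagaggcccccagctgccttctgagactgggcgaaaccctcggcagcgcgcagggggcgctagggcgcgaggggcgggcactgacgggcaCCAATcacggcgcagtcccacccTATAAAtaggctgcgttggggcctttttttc
The H2BC12/H2AC12 stretch holds 6 CCAAT matches, 3 TATAAA matches and 1 octamer, and the H2AC14/H2BC14 stretch 5, 1 and 1. The H4 stretches have neither an octamer nor an H1 box. H1-1, which had no peak, holds 1 CCAAT, 1 TATAAA and 1 H1 box.

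Most histone starts in the cluster were accessible. With a start counted as called where at least 1 bp of a peak lay within 500 bp of it, 42, 40, 42, 39, 42 and 41 of the 50 members were called. This is 84.0%, 80.0%, 84.0%, 78.0%, 84.0% and 82.0%, where over all 20163 genes the share was 45.0%, 43.5%, 46.8%, 44.1%, 46.5% and 46.2%. The mean was 82.0% ± 2.53 (SD, n = 6 libraries) for the members and 45.3% ± 1.36 for the other 20113 genes, and in every library the members lay above the share of all genes. In all 6 libraries 31 members were called, which is 62.0% against 38.1% of all genes. Another 15 members (30.0%) were called in 1 to 5 libraries, against 13.9% of all genes. The 4 members called in no library (8.0%, against 48.0% of all genes) were H1-1, H1-5, H1-6 and H4C7. The libraries thus differed at 15 members.

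**Figure D1:**
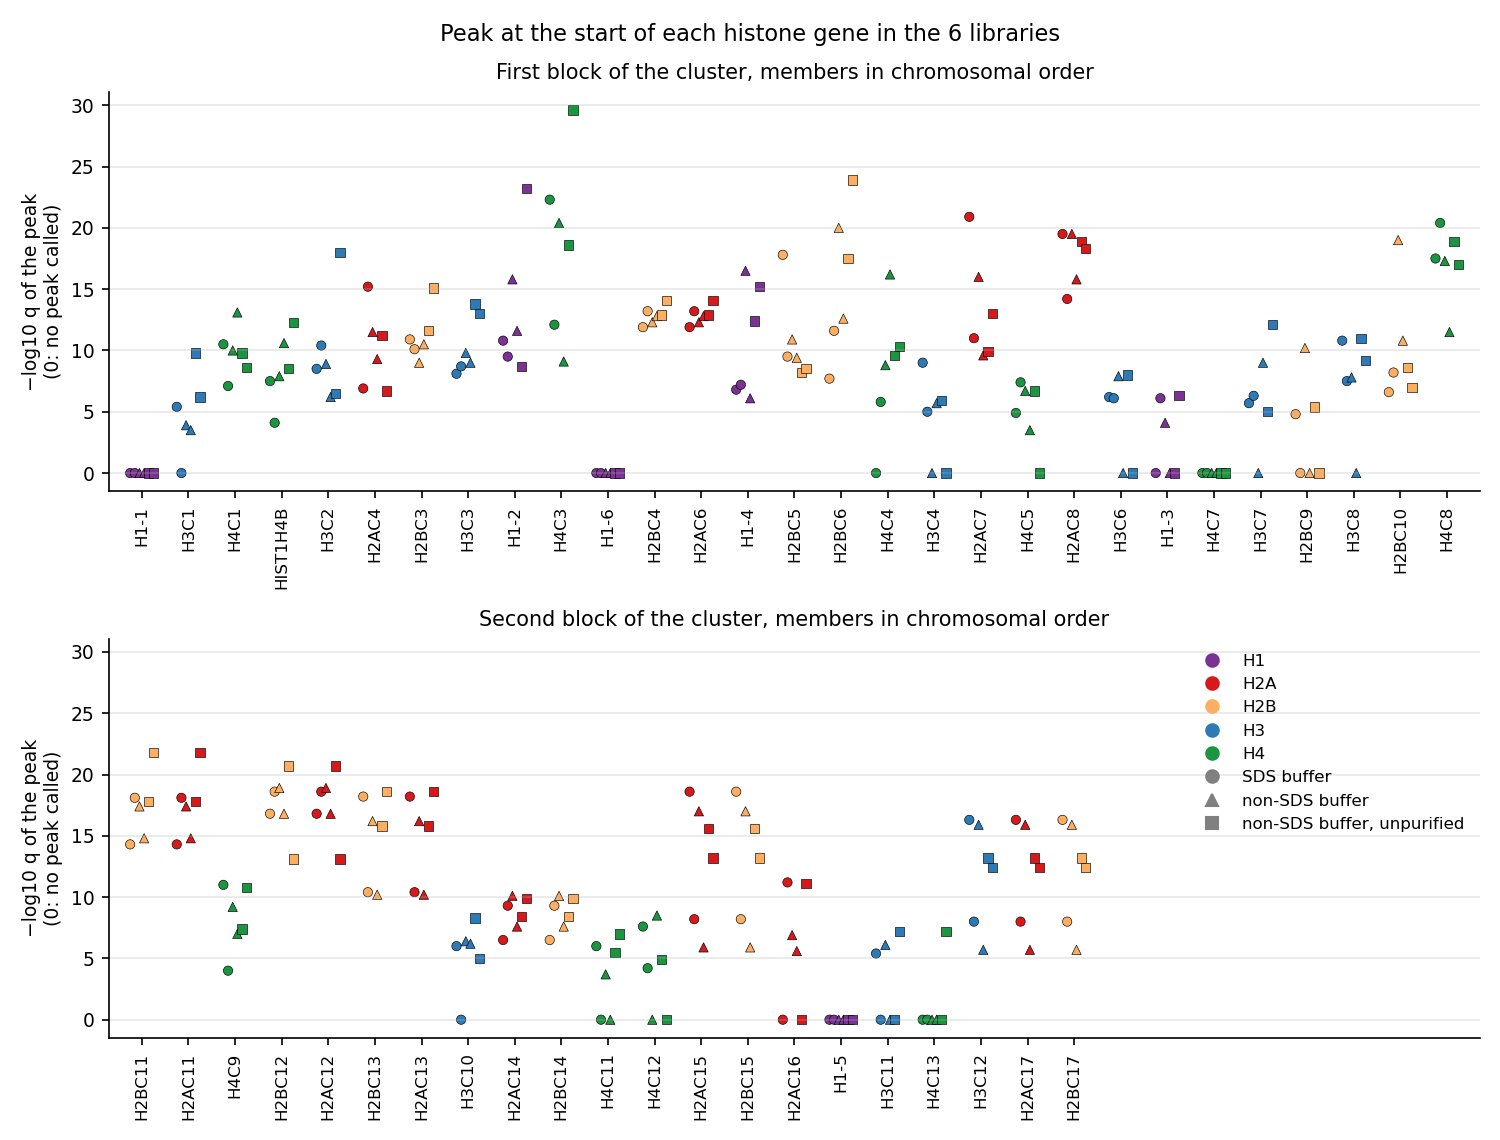
−Log10 q of the strongest peak within 500 bp of each member's start (y axis, 0 where none was called), with members in chromosomal order and coloured by histone type, and the 6 libraries from left to right within each member in the order given in the text. H1-1, H1-6, H4C7 and H1-5 lie at 0 throughout, and H4C3 reaches the highest value, 29.6.

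Histone types differed in how often their starts were called. H2A and H2B, which form the dimers on the outside of the nucleosome core, were called most often: H2A at 10 or all 11 of its starts in each library, and H2B at 95.8% ± 4.56 of starts per library (SD, n = 6), with 10 of 11 and 11 of 12 members in all 6 libraries. H3, which with H4 forms the central tetramer, had 81.7% ± 11.7 and only 3 of 10 in all 6. H4 had 74.2% ± 3.71 and 5 of 11. The linker histone H1, which binds DNA between nucleosomes, had 41.7% ± 9.13 and 2 of 6, which is near the share of all genes. H3 varied most between libraries, from 7 to all 10 members, while H2A and H2B never fell below 90.9%. Every H2A, H2B and H3 member was called at least once.

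The peaks at histone starts were of moderate strength. Each peak was ranked by −log10 q among all peaks of its own library, with 100 for the strongest. The median rank at called members was 56.3 ± 4.60 (51.0 to 62.7 over the 6 libraries), and 76.2 ± 1.21 at other called genes (74.3 to 77.4), and the ranges did not overlap. By type it was 65.6 for H2A, 63.2 for H2B, 53.1 for H1, 45.5 for H4 and 38.8 for H3. At H2A and H2B genes that share a peak as a divergent pair it was 66.2, and at the other H2A and H2B genes 56.0 (46.6 to 61.3). The ranges over libraries overlapped in part, from 52.5 to 74.6 for H2A against up to 55.2 for H3 and 55.3 for H4, and H1 ranged from 35.6 to 71.9 on only 2 or 3 called members. Median widths were 621 ± 47.4 bp for members and 622 ± 35.0 bp for other genes. With each distinct peak counted once they were 576 bp and 613 bp, with members lower in 5 of 6 libraries. Within the cluster, mean widths were 720 bp for H2A, 675 bp for H2B, 524 bp for H3, 525 bp for H4 and 521 bp for H1. The H2A and H2B values include the peaks shared by 7 pairs, each counted for both genes, whose median was 721 bp. The other H2A and H2B genes were at 580 bp, and in non-SDS replicate 1 at 516 bp, below H3 (521 bp) and H4 (527 bp). In unpurified replicate 2 they were also below H3, at 581.5 against 609.5 bp.

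The summits themselves held nearly as many reads as elsewhere. The median was 30.2 ± 2.82 reads at members and 32.5 ± 2.43 at other genes. The local background was higher, at 5.65 ± 0.441 reads against 3.62 ± 0.292, and the fold enrichment lower, at 4.94 ± 0.173 against 7.14 ± 0.148. H4 stood apart within the cluster, with a median background of 3.37 reads and a summit of 22.9 reads, against 5.84 and 27.7 reads for H3. The part of the local background in the lower ranks was not tested. Windows 500 bp around the members' starts also had a lower GC content than those of other genes, with medians of 50.2% and 59.1%, and more CpG relative to base composition, with observed to expected ratios of 0.847 and 0.686. The part of base composition was not tested either.

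**Figure D2:**
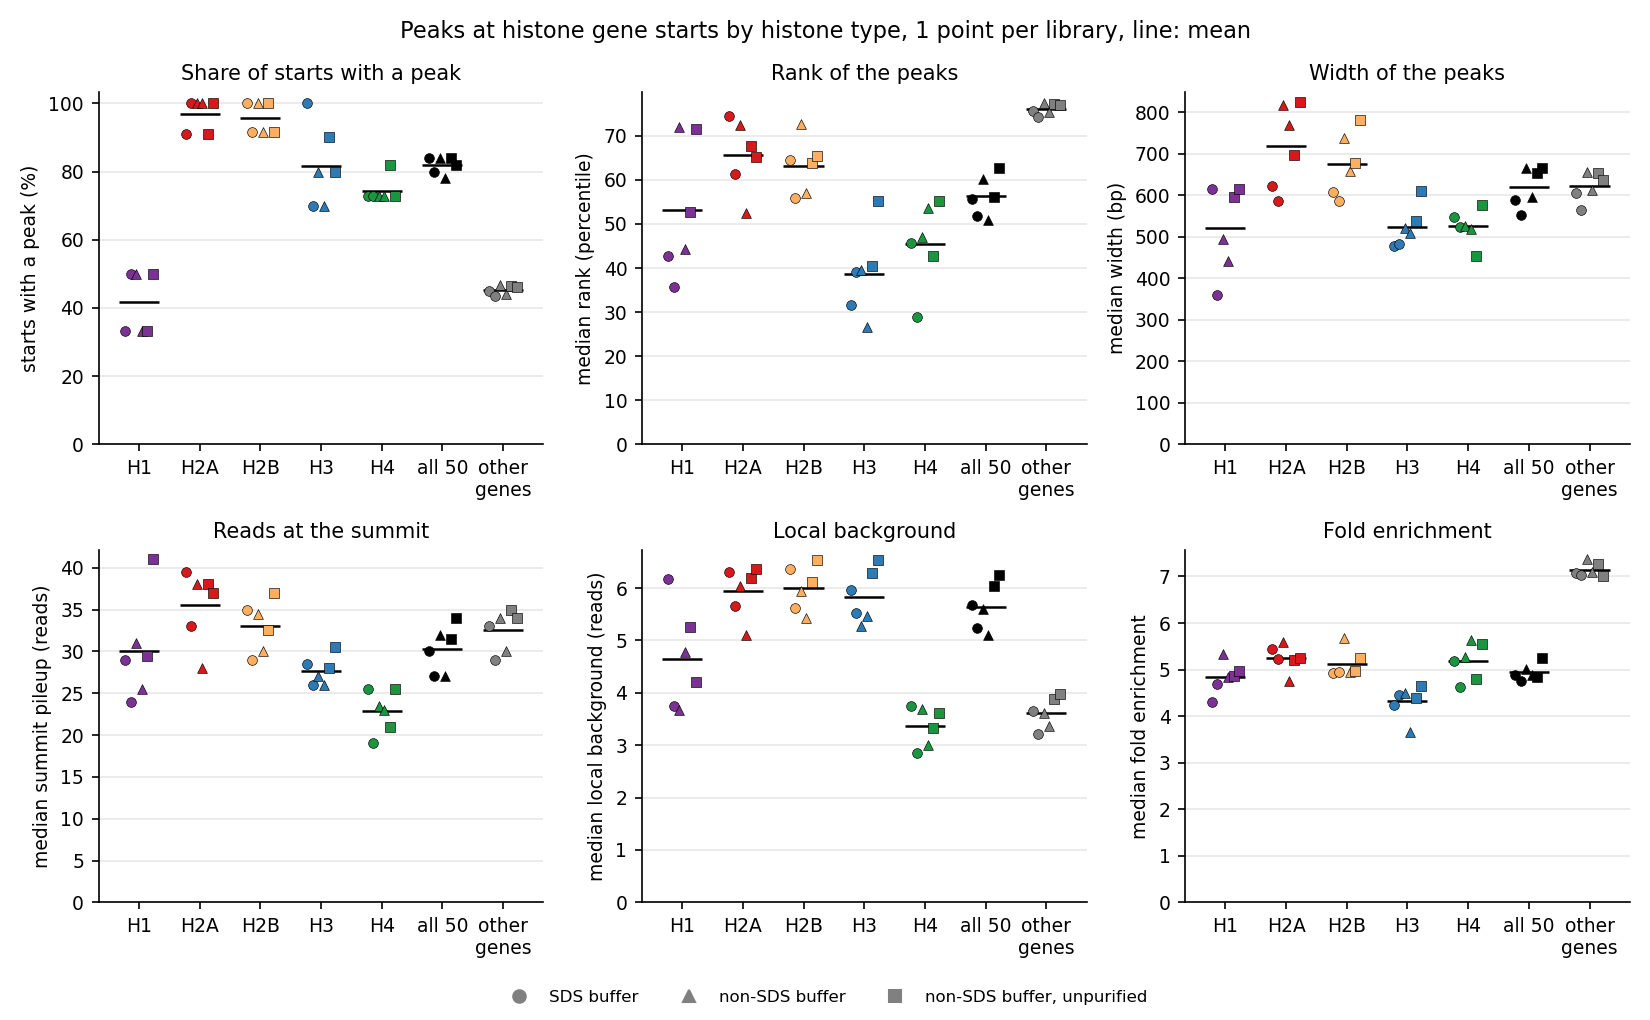
Measures by histone type, for all 50 members and for the other genes, each point 1 library and each line the mean of the 6. The first panel is the share of starts with a peak, the others are medians over called starts: rank in percentiles, width in bp, summit pileup and local background in reads, and fold enrichment. Members were called more often than other genes but ranked lower, with a higher mean local background at all types but H4, although the H1 values overlap those of other genes.

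Reads from near-identical histone genes can be discarded when they map equally well to several places. Of the 75-base stretches within 500 bp of each start, all were unique in the genome for 33 of the 50 members, and at least 95% for 43. The lowest value was 62.9%, at H4C11 and H4C12, each called in 4 libraries. The 4 members without a peak had fully unique windows. Outside the limits set for members it was otherwise. Of the 16 other replication-dependent histone genes, 8 were not called in any library. Of these, 5 (H4C14, H3C14, H2AC19, H3C15 and H4C15, on chromosome 1) had no unique stretch at all. In those 16 genes 7 were called in all 6 libraries (43.8%).

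The 7 close H2A and H2B pairs were served by 1 peak in every library. Divergent pairs were neighbouring genes on opposite strands with starts facing away from each other within 1000 bp, and there were 8 among the members and 816 elsewhere. The 7 H2A/H2B pairs, with starts 170 to 251 bp apart, each lay under 1 peak in all 6 libraries, whereas H3C7 and H2BC9, 979 bp apart, shared none. This makes 87.5% of member pairs in each library, beside 73.5% of all 824 pairs that shared a peak in all 6. Per library, other pairs shared a peak in 81.5% ± 1.87 of cases, and the 620 of them less far apart than the widest H2A/H2B pair in 83.7% ± 1.96. Close divergent pairs are thus commonly under 1 peak, and the 7 histone pairs are few. The shared histone peaks had a median width of 721 ± 100 bp (SD, n = 6), against 686 ± 35.1 bp at other pairs, and a median rank of 66.2 ± 7.99 against 82.6 ± 0.691.

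H2BC12/H2AC12 had the highest mean −log10 q of the pairs, 17.5. Its peak had −log10 q of 16.8, 18.6, 18.9, 16.8, 20.7 and 13.1, with 39, 41, 41, 41, 43 and 36 reads at the summit and widths of 624, 1062, 818, 776, 906 and 1117 bp. H2BC11/H2AC11 was much the same, with a mean of 17.4 and 38 to 49 reads. The weakest was H2AC14/H2BC14, with a mean of 8.64 and values of 6.5, 9.3, 10.1, 7.6, 8.4 and 9.9. All its values lay below all those of H2BC12/H2AC12, and in 1 library the peak did not reach both start bases. H2AC15/H2BC15 varied most, from 5.9 to 18.6, with the second replicate of the SDS and of the non-SDS buffer low at 8.2 and 5.9. H2AC17/H2BC17 was low in the same libraries, at 8.0 and 5.7, against 12.4 to 16.3 in the others. H2BC4/H2AC6 was the steadiest, from 11.9 to 14.1, and the widest by its median over libraries, with widths from 834 to 1632 bp, although H2BC11/H2AC11 was wider in 3 libraries. The remaining pair, H2BC13/H2AC13, was also low in the second replicates of the SDS and the non-SDS buffer, at 10.4 and 10.2, against 15.8 to 18.6 in the others.

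**Figure D3:**
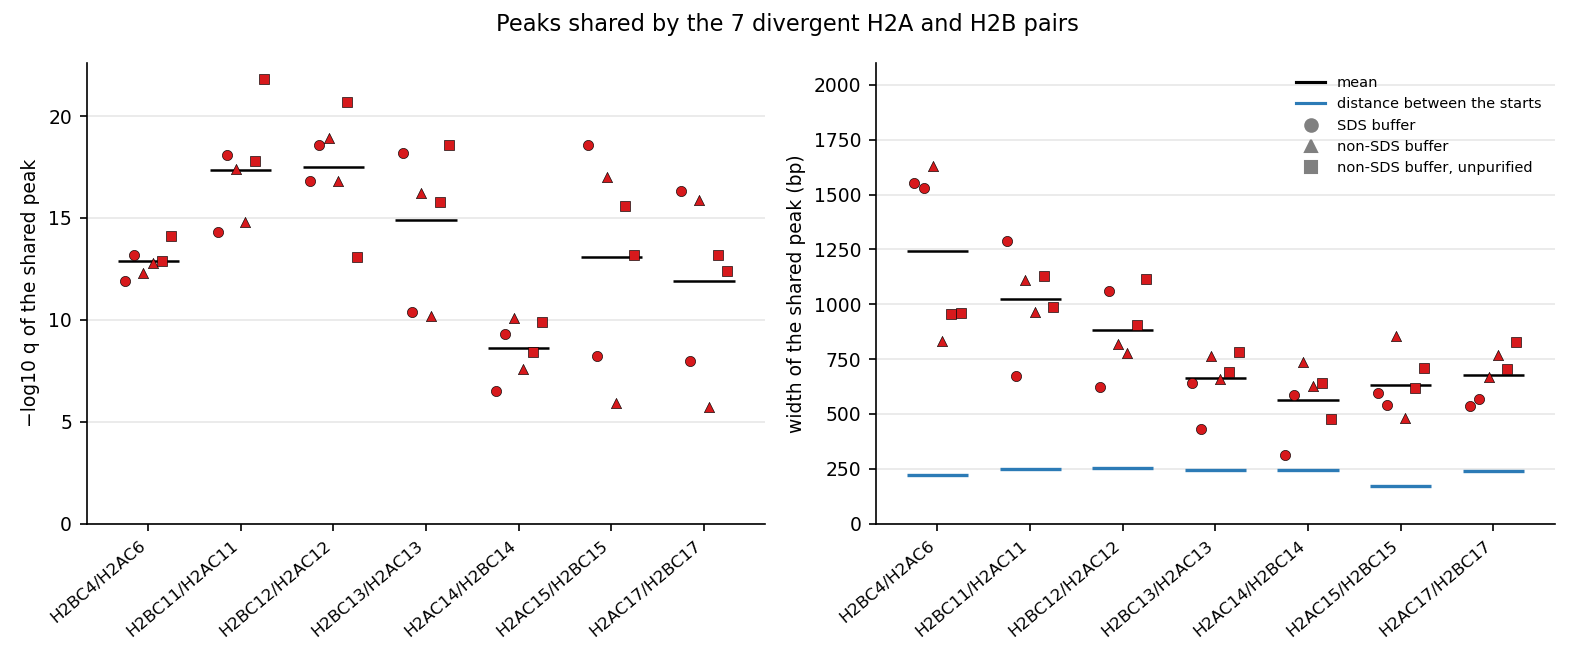
The shared peak of each of the 7 H2A and H2B pairs, with −log10 q on the left and width in bp on the right, each point 1 library and each black line the mean. Blue lines give the distance between the starts. Every peak was wider than that distance, and H2AC14/H2BC14 had the lowest mean −log10 q, 8.64.

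The pair H2AC1/H2BC1, genes used in the testis that lie outside the cluster's limits on the same chromosome, has the same arrangement with starts 215 bp apart. Neither start was called in any library. H1-6, the testis linker histone within the cluster, was likewise not called. Of H3C7 and H2BC9, the first had a peak in 5 libraries and the second in 3, with −log10 q of 4.8, 10.2 and 5.4 in SDS replicate 1, non-SDS replicate 1 and unpurified replicate 1. H2BC9 was thus called in the first replicate of each protocol and in no second replicate.

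Where the peak lay relative to the gene also differed by type. Measured from the start of the canonical transcript, the summit was upstream at 74.1% ± 0.628 of other called genes, with a median position of -79.5 bp. In the 7 shared pairs it was upstream of 85.7% ± 11.1 of starts, as it must be where the summit falls between them. At the other H2A and H2B genes it was upstream in 67.9% ± 12.6. At H3, H4 and H1 genes the summit was upstream in only 24.4% ± 9.60, 16.2% ± 5.80 and 13.9% ± 22.2, with medians of 85.2, 102 and 101 bp inside the gene. In every library the H3 and H4 shares lay below that of other genes, and H1 rested on 2 or 3 called members. Downstream of the start, 47.4% ± 4.91 of the first 500 bp was under peaks at members and 24.8% ± 2.14 at other genes.

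These genes are short enough for a peak to cover much of them. On average 47.8% ± 4.65 of the bases of a member's canonical transcript lay under peaks, from 26.6% for H1 to 53.2% for H2B. In each library 4 to 6 of the 50 were covered from end to end. Of 168 other genes in the same range of transcript lengths, 16 to 19 were touched by a peak, and 5.00% ± 0.332 of their bases were covered. Short genes elsewhere were mostly uncalled, so the difference in cover goes with the difference in calls.

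**Figure D4:**
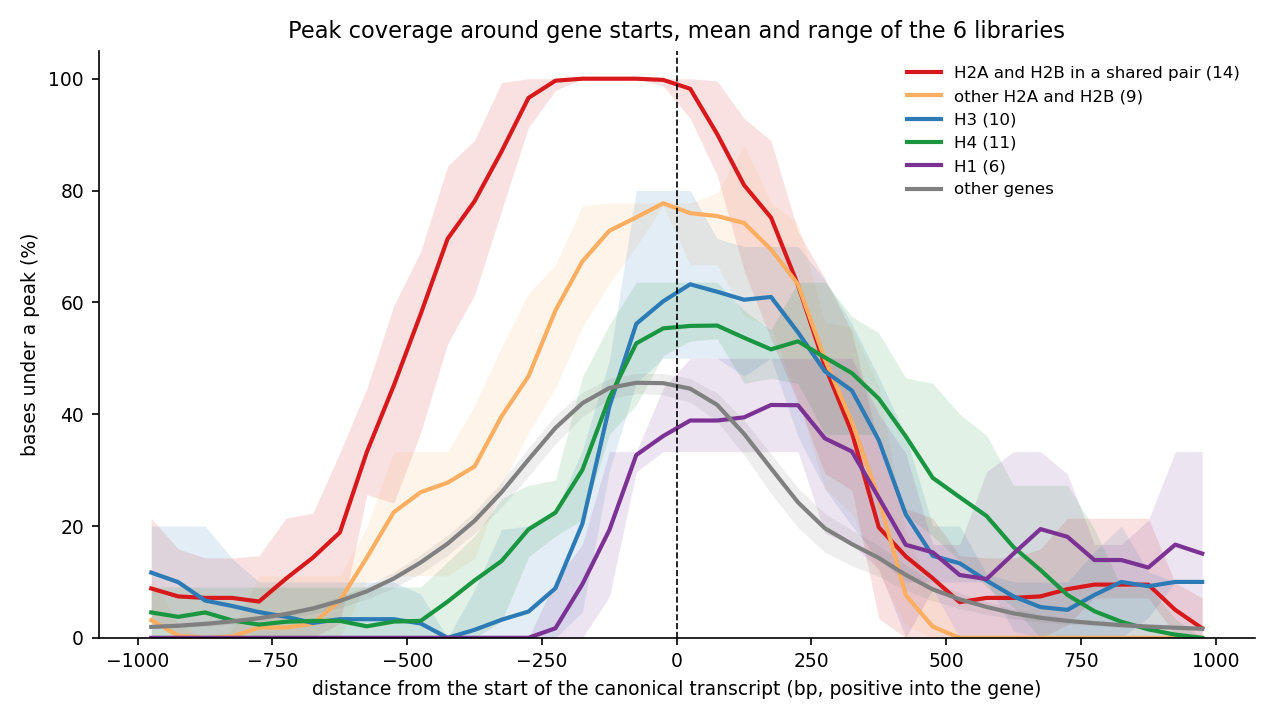
Share of bases under a peak in 50-bp bins (y axis, %) against distance from the canonical start (x axis, bp, positive into the gene), each line the mean and each band the range of the 6 libraries. Shared H2A and H2B promoters are covered upstream and across the start, whereas cover at H3, H4 and H1 genes lies mostly within the gene.

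In 3 members the gene start lies far from the start of the canonical histone transcript, because a longer transcript is annotated. For H2BC6 the distance is 11702 bp and for H3C6 936 bp. Both were called at the gene start, in 6 and 4 libraries, but neither had a peak within 500 bp of the canonical start in any library. H3C12 has its gene start 2280 bp from the canonical one and within the peak of H2AC17 and H2BC17, whose values it takes. At its canonical start it had a peak of its own in all 6 libraries, with −log10 q of 5.40, 9.11, 11.3, 10.8, 8.01 and 5.82. Counted from canonical starts, 78.7% ± 2.07 of members and 49.2% ± 1.42 of other genes were called, and 30 members were called in all 6 libraries.

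Among H1 genes, H1-2 and H1-4 were called in all 6 libraries. H1-2 was the strongest, with −log10 q of 10.8, 9.5, 15.8, 11.6, 8.7 and 23.2, the last in unpurified replicate 2. H1-4 had 6.8, 7.2, 16.5, 6.1, 12.4 and 15.2. H1-3 was called in 3 libraries, with 6.1, 4.1 and 6.3 in SDS replicate 2, non-SDS replicate 1 and unpurified replicate 2, on 14 to 18 reads. H1-1 and H1-5 were called in none. H1 genes thus ranged from called throughout to called nowhere, with H1-3 between.

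Among H2A genes, H2AC8 was highest and steady, with 19.5, 14.2, 19.5, 15.8, 18.9 and 18.3 and a peak 900 to 1168 bp wide, without a divergent partner. H2AC16 was the one H2A gene missed by a library, with 11.2, 6.9, 5.6 and 11.1 in SDS replicate 2, both non-SDS replicates and unpurified replicate 2. Its widths were 276 to 415 bp, all below those of H2AC8. Among H2B genes, H2BC12 was highest through the shared peak described above and H2BC9 lowest.

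H4 genes spanned the widest range. H4C3 had the highest mean of the whole cluster, 18.7, with −log10 q of 22.3, 12.1, 20.4, 9.1, 18.6 and 29.6 and ranks of 49.5 to 91.6. The second replicates of the SDS and non-SDS buffers were its low values. H4C8, at the end of the first block, had 17.5, 20.4, 17.3, 11.5, 18.9 and 17.0. H4C4 and H4C5 were called in 5 libraries, H4C11 and H4C12 in 4, and H4C13 in 1, unpurified replicate 2, by a peak that also reached the window of H3C11. H4C7 had no peak. The calls at H4C11, H4C12 and H4C13 depend on the window: within 250 bp of the start they had a peak in 1, 0 and 0 libraries, and over the start base itself in none. The weakly called H4 starts had few reads, with summits of 14 to 20 at H4C5, 14 to 19 at H4C11 and 11 to 19 at H4C12.

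H3 genes had the lowest median rank of the 5 types in the mean over libraries. In SDS replicate 2, however, H4 (28.9) and H1 (35.6) ranked below H3 (39.1). H3C3 was the highest called at a start of its own, with 8.1, 8.7, 9.8, 9.0, 13.8 and 13.0 and a mean of 10.4, and H3C2 was close at 9.75. H3C2 had 8.5, 10.4, 8.9, 6.2, 6.5 and 18.0, and its high value, in unpurified replicate 2, came with 43 reads and a rank of 78.0, above the median of 76.9 for other called genes there. H3C11 was lowest, at 5.4, 6.1 and 7.2 in SDS replicate 1, non-SDS replicate 1 and unpurified replicate 2. H3C1, H3C7, H3C8 and H3C10 were called in 5 libraries and H3C4 and H3C6 in 4. Each was missed by only 1 or 2 libraries, and their called peaks had 14 to 34 reads at the summit. H3 is thus the type with the most members called in some libraries and missed in others, 7 of 10.

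Some of the promoter letters searched for were found mainly in certain histone types. Promoters of 300 bases from RefSeq (GRCh38.p14, 250 before and 50 after the start) were matched by symbol for 45 of the 50 members, and compared with all 27305 RefSeq promoters. CCAAT, on either strand, was present in 84.4% of members and 35.7% of all promoters. It was in every matched H1, H2A, H2B and H3 promoter but in 22.2% of the 9 H4 promoters. TATAAA was in 66.7% of members against 12.0%. The octamer was in 8 of 10 H2A and 9 of 12 H2B promoters, 1 of 8 H3 and none of the H1 or H4 promoters, against 492 of all 27305. Promoters of the close H2A and H2B pairs overlap, so a match there can count for both genes. The H1 box was in all 6 H1 promoters and in no other member, against 5.76% of all. H1 starts with and without a peak thus held the same H1 box. A match is a description of the letters, not of a bound factor.

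Other genes in the surroundings of the cluster were called less often than the members. Of 17 other protein-coding genes in the same stretch, such as the butyrophilin genes, 4 were called in all 6 libraries (23.5%, against 38.1% of all genes). Per library 49.0% ± 7.12 of them were called, against 45.4% ± 1.37 of all genes. One of the 4, ENSG00000282988, has the same start and the same peak as the member H2AC7. In the first block, a stretch of 268 kb, nearly all peaks lay at members, 22 to 24 per library, with 2 to 4 elsewhere. The second block, of 761 kb, had 9 to 12 at members and 11 to 20 elsewhere. Members were called at about the same share in each block, 81.0% ± 4.22 in the first and 83.3% ± 4.99 in the second.

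Genes for proteins that make or handle histones had higher-ranked peaks than the histone genes, as did other called genes at large, whose median rank was 76.2 against 56.3 for members. Of all genes, 38.1% were called in all 6 libraries. Of 21 genes for transcription and processing, such as NPAT, which activates histone transcription at S phase, and SLBP, which binds the stem-loop, 17 were called in all 6 libraries (81.0%), with a median rank of 84.0 ± 2.47. POU2AF1, a B cell coactivator of octamer-binding factors, had no peak within 500 bp of its annotated gene start. For the genes in these lists, values at other annotated starts are not reported here. LSM10 and CPSF2, which process the mRNA end, were called in 4 and 5 libraries and CCNE2, a cyclin, in 3. Of 15 histone chaperones 14 were called in all 6, with a median rank of 80.3 ± 3.70, and CHAF1A, of the replication-coupled assembly factor CAF-1, in 5. Of 9 replication-independent histones, which are also made outside S phase, 5 were called in all 6 (H2AX, H2AZ1, H2AZ2, MACROH2A1 and H3-3A). H3-3B and MACROH2A2 had no peak at the annotated gene start.

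The protocols were compared to ask whether the new buffer and the missing purification alter the accessible sites found. The unpurified libraries may also differ in the lysis and stopping steps named above, and the part of these steps was not tested. At the histone cluster, the enrichment of no single region passed the limma test between protocols, and the differences in the share of members called depended on the peak threshold. The share of members called was 84.0% and 80.0% with the SDS buffer, 84.0% and 78.0% with the non-SDS buffer, and 84.0% and 82.0% without purification. The means of 82.0%, 81.0% and 83.0% differ by at most 2.0 percentage points, less than the within-protocol SD of 3.06. With −log10 q of at least 5, however, the unpurified libraries were 6.0 points above each of the other protocols, and with equal numbers of peaks per library the non-SDS and the unpurified libraries were 4.0 and 5.0 points above the SDS buffer. With 2 libraries against 2 the exact two-sided permutation test cannot give a p below 0.33. Median ranks at members were 55.7 and 51.8, 60.3 and 51.0, and 56.2 and 62.7, and those of the SDS buffer and the unpurified libraries did not overlap. At other genes they were 75.7 and 74.3, 77.4 and 75.5, and 77.2 and 76.9, and the same protocols did not overlap there either. Median widths at members were 589.5 and 553.5 bp with the SDS buffer, 666 and 596 bp with the non-SDS buffer, and 654 and 665 bp without purification. Both SDS buffer libraries were thus below the other 4 where a shared peak counts for each of its genes. With each distinct peak counted once they were not, since SDS replicate 1, at 577.5 bp, was above both non-SDS libraries, at 557.5 and 560 bp. At other genes the widths were 606 and 565 bp, 657 and 613 bp, and 655 and 637 bp, in the same order, where the SDS buffer libraries were again lowest.

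Merging overlapping peaks across libraries gave 56447 regions. Of these, 20064 had a peak in every library, and their log2 fold enrichment was tested with limma. Of 37 regions at histone starts, 23 were called in all 6 and could be tested, holding 32 members. With Benjamini-Hochberg adjustment no region of the genome was called in any contrast (0.0% of 20064), and none of the 23. At an unadjusted p under 0.05, 6.13%, 5.99% and 4.32% of all regions passed for non-SDS minus SDS, unpurified minus SDS and unpurified minus non-SDS, and 1, 0 and 1 of the histone regions. The histone region was H2BC10 both times. In the non-SDS buffer it was higher than in the SDS buffer by a log2 difference of 0.49 (SE 0.19), with an adjusted p of 0.762 in limma. In the unpurified libraries it was lower than in the non-SDS buffer, by a log2 difference of -0.50 (SE 0.19), with an adjusted p of 0.999 in limma. Its −log10 q was 6.6, 8.2, 19.0, 10.8, 8.6 and 7.0, so that a single library, non-SDS replicate 1, stood high. Median differences over the 23 regions were 0.017, 0.053 and 0.06, beside -0.004, -0.026 and -0.019 over all regions. The contrasts share libraries.

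**Figure D5:**
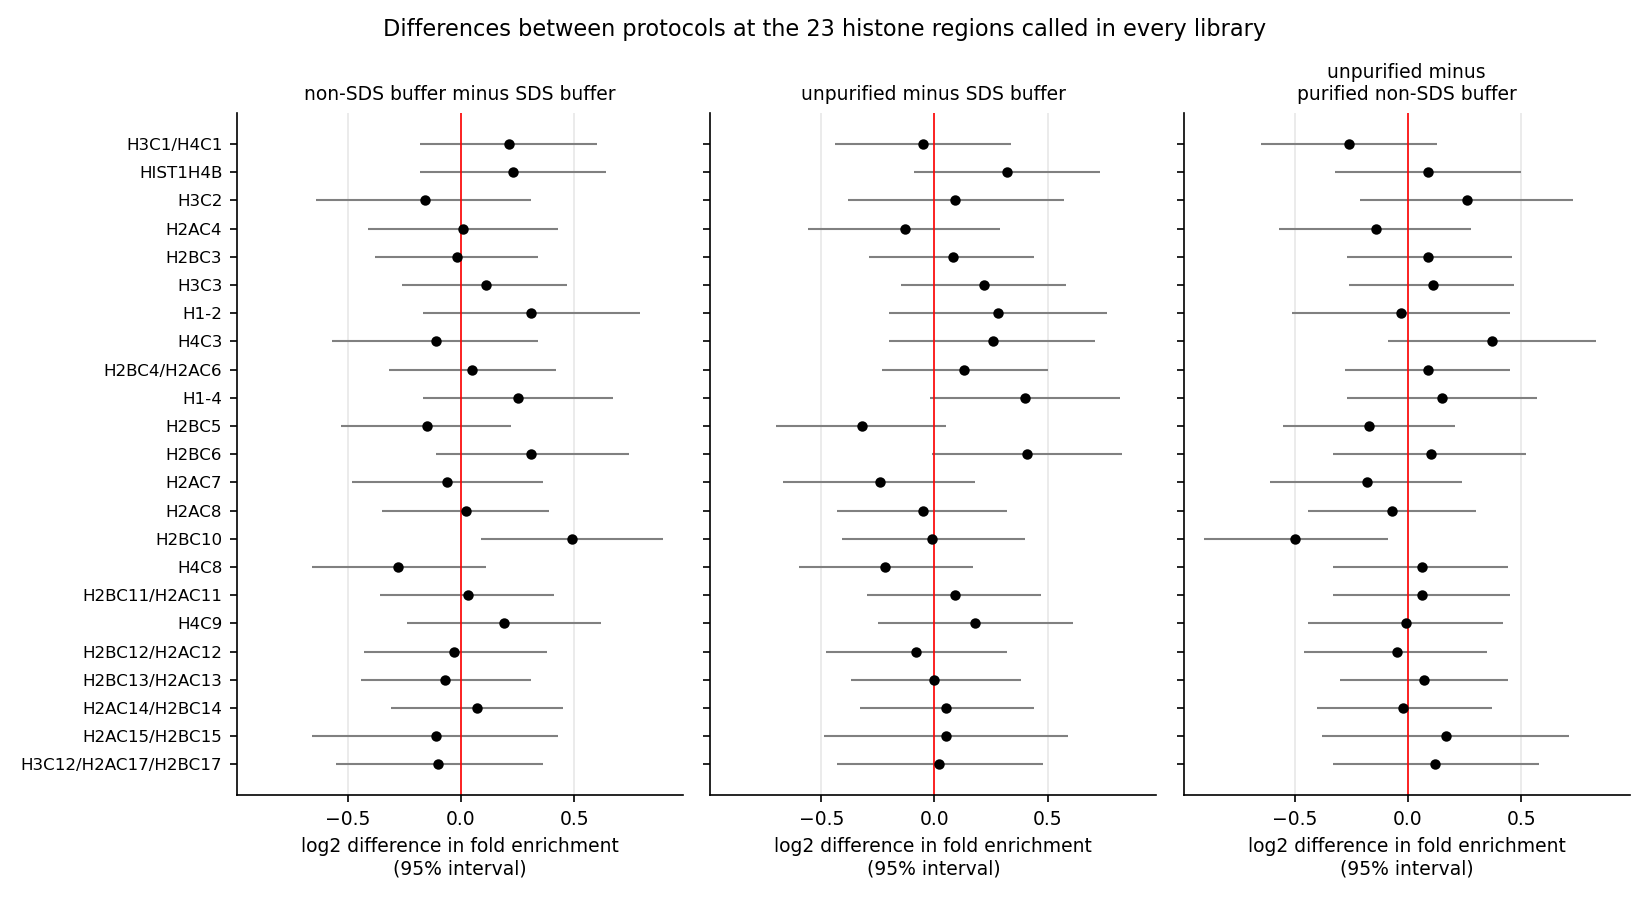
Log2 difference in fold enrichment (x axis) with its 95% interval at the 23 histone regions called in every library, in chromosomal order, for the 3 contrasts. Only the intervals of H2BC10 leave out 0, in the left and right panels, and neither difference passed adjustment.

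The intervals show which differences the data leave possible. At H2BC12/H2AC12 the interval for unpurified minus SDS ran from -0.48 to 0.32, and at H4C3 from -0.20 to 0.71. Over the 23 regions the highest upper bound in this contrast was 0.83, at H2BC6, and the lowest lower bound -0.70, at H2BC5.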

How the data were processed

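ATAC-seq peaks of 6 libraries were used. The authors mapped reads to hg19 with Bowtie2 (2.1.0), removed duplicates with Picard (1.79) and ran MACS2 for narrow peaks (q value threshold 0.01). For MACS2 the version is not given in the sources used here. By the methods, reads were merged per condition, but there is 1 list per library. The deposited lists hold a score (−log10 q times 10), a fold enrichment (a ratio) and −log10 p and −log10 q for each peak. They give no counts. Groups came from the labels.

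For each gene start (GENCODE 44) the peak with the highest −log10 q within 500 bp stood for the gene. H2BC7, H2BC8 and H4C6 are not analysed here. Among the comparison lists, 1 B cell marker and 1 replication-independent histone are not reported. Members and lists were chosen with earlier results of these data known. By rule, the text names the highest and lowest member of each type by mean −log10 q, every member missed by a library, H1-6, H2AC1, H2BC1 and the pairs; others were chosen after their values were seen. HIST1H4B is an older name of H4C2. Protocols were compared with limma 3.58.1 (R 4.3.3) on log2 fold enrichment, without a pseudocount, over regions called in all 6 libraries. Overlaps were checked against bedtools 2.31.1 and limma was tested on simulated data. Python 3.11.15, pandas 2.3.3 and NumPy 2.4.6 were used.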

Additional observations from a re-analysis of the deposited data

How the results depend on the processing

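Of 122 values recomputed under other settings, 107 stayed within the spread between replicates or within 1.5 times the count. The share of members called, 82.0%, moved to 78.0% with −log10 q of at least 5, 77.0% with an equal number of peaks per library, 78.0% with a window of 250 bp, 74.0% with the start base alone and 78.7% from canonical starts, a setting chosen after seeing the data. The share of other genes went from 45.3% to 43.3%, 43.2%, 42.9%, 38.7% and 49.2% in these settings, so that members stayed above in each. Members called in no library rose from 4 to 6 with a window of 250 bp and to 7 with the start base alone, the added ones being H4 genes. From canonical starts there were also 6, the added ones being H2BC6 and H3C6. The median rank, 56.3, moved to 50.2 with the stricter q and 50.6 with equal numbers of peaks, where other genes had 74.2 and 74.1. Pairs sharing a peak, 87.5%, moved to 95.8% with a window of 1000 bp and 85.4% with the start base alone. The median width, 621 bp, moved to 576 bp (other genes 613 bp) with each distinct peak counted once, also chosen after seeing the data. Leaving out 1 library at a time gave shares of 81.6% to 82.8%, ranks of 55.0 to 57.3 and widths of 612 to 634 bp, with pairs at 87.5%.

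Differences between protocols in the share called did not keep a direction. The difference of -1.0 percentage points for non-SDS minus SDS moved to 4.0 with an equal number of peaks and ranged from -4.0 to 2.0 with 1 library left out. For unpurified minus SDS, 1.0 moved to 6.0 with the stricter q and to 5.0 with equal numbers of peaks, and ranged from -1.0 to 3.0. For unpurified minus non-SDS, 2.0 moved to 6.0 with the stricter q and ranged from -1.0 to 5.0. The cause of these shifts was not tested.

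limma called 0 regions in each contrast and setting except 1 region, not at a histone gene, for unpurified minus SDS over regions called in at least 4 libraries. With the replicate number as a block the number stayed at 0, and the smallest adjusted p at a histone region was 0.683. Deviations from group means in libraries with the same number correlated at only 0.013, -0.001 and 0.015. In each protocol, however, the first replicate had more peaks and more members called than the second. Limits: summits hold few reads, so a start called in some libraries may be missed in others by counting error alone, and no start without a peak is shown to be closed.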
